A study of Mus musculus with 12 samples.

Results

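Serpinb2, Serpinb3a, Serpinb3b, Serpinb3c, Serpinb3d, Serpinb5 and Serpinb12 are 7 mouse genes of clade B of the serpins, the protease inhibitors that act inside cells, and they were taken by name from the 47643 genes measured. Poly(A) RNA from the skin of C57BL/6 mice, 10 weeks old, was sequenced in 12 libraries, 3 in each of 4 groups: whole skin of Adam17 conditional knockout (KO) mice (Sox9-Cre with floxed ADAM17 alleles), whole skin of wild type (WT) mice, epidermis of KO mice and epidermis of WT mice. Adam17 encodes a membrane protease that sheds growth factors and cytokine receptors from the cell surface. Sox9-Cre is active in the hair follicle lineage and in the other cells that express Sox9. Which cells of these samples lost Adam17 and which kept it was not measured. The labels name the control mice only as wild type and do not say whether they carried floxed alleles or Cre.

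A serpin exposes a flexible reactive centre loop that a protease cuts, after which the loop folds into the body of the serpin and the protease is trapped. Clade B serpins lack a classical secretion signal and act mainly within cells. In the epidermis many of them are made by keratinocytes. The mouse Serpinb3 genes are the counterparts of human SERPINB3 and SERPINB4, known as squamous cell carcinoma antigens, of which human SERPINB3 inhibits papain-like cysteine proteases and human SERPINB4 chymotrypsin-like serine proteases. Serpinb12 inhibits trypsin-like serine proteases. Serpinb2, plasminogen activator inhibitor 2, inhibits urokinase. Serpinb5, called maspin, has a serpin fold but does not trap proteases.

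All 7 genes lie in a cluster on chromosome 1 (GENCODE release 21 on GRCm38, the assembly also called mm10) that spans 749312 bp and holds 12 clade B genes and no other protein-coding gene. From Serpinb5 (ENSMUSG00000067006, chr1:106861173-106883348, plus strand) the order is Serpinb12 (ENSMUSG00000059956, chr1:106934449-106957080, plus strand), Serpinb13, Serpinb3a (ENSMUSG00000044594, chr1:107045587-107052303, minus strand), Serpinb3d (ENSMUSG00000058017, chr1:107078167-107083506, minus strand), Serpinb3b (ENSMUSG00000073602, chr1:107153940-107278361, minus strand), Serpinb3c (ENSMUSG00000073601, chr1:107271201-107278371, minus strand), Serpinb11, Serpinb7, Serpinb2 (ENSMUSG00000062345, chr1:107511423-107535478, plus strand), Serpinb10 and Serpinb8. The annotated span of Serpinb3b covers 7161 bp of Serpinb3c, and that of Serpinb2 shares 6476 bp with Serpinb10 on the same strand. Reads from such shared stretches cannot be told apart by position alone.

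The coding sequence of Serpinb3a was 93.1% identical to that of Serpinb3b, 91.5% to that of Serpinb3c and 89.6% to that of Serpinb3d, while identity between members of different names ran from 59.1% to 67.3%. Windows of 50 bases were scored on the transcript with the longest coding sequence of each gene. Of these windows, 84.9% for Serpinb3a, 85.3% for Serpinb3b, 87.8% for Serpinb3c and 86.6% for Serpinb3d occurred in no other annotated gene. This share was 100% for Serpinb2, Serpinb5 and Serpinb12. Other transcripts of these genes were not scored. Expected counts of Serpinb2 were not whole, as in Skin WT 1 (2608.32, beside 602.68 for Serpinb10), so some of its reads were shared out. The stretches that encode the reactive centre loop are shown because this loop sets which protease a serpin can trap. They run from the hinge of the loop to the base before the conserved end motif, lie in the last exon, and are printed 5′ to 3′ on the coding (minus) strand from GENCODE release 21 transcripts, with capitals for bases that differ from Serpinb3a.
Serpinb3a (chr1:107046094-107046174): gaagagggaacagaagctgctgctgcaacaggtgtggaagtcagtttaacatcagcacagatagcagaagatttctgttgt
Serpinb3b (chr1:107154447-107154527): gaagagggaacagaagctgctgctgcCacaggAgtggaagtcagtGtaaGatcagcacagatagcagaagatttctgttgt
Serpinb3c (chr1:107271707-107271784): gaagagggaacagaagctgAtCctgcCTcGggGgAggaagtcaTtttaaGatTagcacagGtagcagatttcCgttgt
Serpinb3d (chr1:107078271-107078351): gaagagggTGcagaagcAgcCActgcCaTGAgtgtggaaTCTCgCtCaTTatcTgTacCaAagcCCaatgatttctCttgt
Serpinb3b differed from Serpinb3a at 4 of 81 aligned bases of the loop, Serpinb3c at 12 of 78 and Serpinb3d at 24 of 80, so Serpinb3d had the least similar loop (70.0% identical).

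Upstream of the start site the copies were again close to each other. From the RefSeq promoters (GRCm38.p6, 250 bases before each start site), a stretch of 216 bases aligned without a gap among Serpinb3a, Serpinb3b and Serpinb3c, and it is shown because the levels of these 3 genes differ widely. It is printed 5′ to 3′ on the minus strand. Capitals mark a TATA box (letters TATAAA) in Serpinb3a and bases that differ from Serpinb3a in the others.
Serpinb3a (chr1:107052338-107052553): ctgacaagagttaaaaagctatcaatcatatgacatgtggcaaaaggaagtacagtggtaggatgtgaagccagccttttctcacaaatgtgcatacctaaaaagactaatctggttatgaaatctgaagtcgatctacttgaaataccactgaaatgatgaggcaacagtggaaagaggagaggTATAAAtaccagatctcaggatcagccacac
Serpinb3b (chr1:107161125-107161340): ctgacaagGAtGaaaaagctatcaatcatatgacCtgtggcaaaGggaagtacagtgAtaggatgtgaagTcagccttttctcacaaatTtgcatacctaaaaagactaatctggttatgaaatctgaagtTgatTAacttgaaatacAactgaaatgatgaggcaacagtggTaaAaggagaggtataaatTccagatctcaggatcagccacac
Serpinb3c (chr1:107278372-107278587): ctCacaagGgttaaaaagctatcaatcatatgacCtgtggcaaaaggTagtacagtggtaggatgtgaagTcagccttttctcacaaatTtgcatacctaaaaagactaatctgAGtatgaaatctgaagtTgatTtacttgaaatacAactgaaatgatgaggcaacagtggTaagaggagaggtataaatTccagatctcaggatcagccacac
Serpinb3b differed from Serpinb3a at 15 of the 216 bases (93.1% identical) and Serpinb3c at 13 (94.0% identical). At 9 positions Serpinb3b and Serpinb3c shared a base that Serpinb3a lacks. The upstream bases of Serpinb3d aligned with those of Serpinb3a over 25 bases only, of which 19 were identical. TATAAA on the given strand occurred 65 bases before the start of Serpinb3a, 41 before that of Serpinb3b and 31 before that of Serpinb3c. In the aligned stretch it lay at the same position in all 3 genes. The stretch ended 34, 10 and 0 bases before their starts, so the distances differ only with the annotated start sites. TATAAA was found in 7.59% of all 32851 mouse promoters. It also occurred in both promoters of Serpinb2 (29 and 116 bases before the start) and of Serpinb12 (220 and 201). Serpinb3d and Serpinb5 had no match. The AP-1 letters TGANTCA, searched on both strands, were in a promoter of Serpinb2, of Serpinb5 and of Serpinb12 and in 6.75% of all promoters. The STAT letters TTCNNNGAA, searched on both strands, were in 1 of the 2 promoters of Serpinb2 and in 7.02% of all promoters. The STAT motif with 4 bases between its arms was in no promoter of a member and in 5.85% of all promoters. These matches describe letters only.

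Libraries held between 12208522 and 16743144 expected counts, so that 3 counts correspond to between 0.157 and 0.265 TMM-scaled CPM. Adam17 was measured at 41.6, 52.1 and 52.5 CPM in KO skin and at 72.3, 96.3 and 94.1 CPM in WT skin, and at 48.4, 58.0 and 47.3 CPM in KO epidermis and 79.0, 86.4 and 79.5 CPM in WT epidermis, lower in every KO library than in every WT library of the same tissue. Y-linked genes had reads in 5 of the 6 KO libraries and in 0 of the 6 WT libraries, so male RNA and the genotype are in part confounded. Skin KO 2 was the KO library without such reads. Xist, an RNA of female cells, had 319 reads beside 1034 Y-linked reads in Skin KO 3. It had 2511 beside 213 in Epidermis KO 2 and 2050 beside 679 in Epidermis KO 3. These libraries thus held male and female RNA, and where the mixture comes from was not tested. Skin KO 1 and Epidermis KO 1 had Y-linked reads and 0 reads of Xist. Nothing in the labels assigns the libraries to different mice, so p-values measure the spread between libraries only, part of which may be technical. Summed markers of skeletal muscle (6 genes) ran from 464 to 2457 CPM in KO skin and from 7143 to 58626 CPM in WT skin, with Skin WT 1 the highest, and against 8.39 to 22.3 CPM in the epidermis of both genotypes. Summed markers of suprabasal keratinocytes (7 genes) ran from 33308 to 39104 CPM in KO skin, from 19853 to 26623 CPM in WT skin, from 56438 to 82362 CPM in KO epidermis and from 38621 to 47435 CPM in WT epidermis. In each tissue 2 of the 7 rose, 2 fell and 3 did not pass. Krt1 rose to 16634 CPM in KO skin, against 2426 CPM in WT skin, and to 28667 CPM in KO epidermis, against 4441 CPM in WT epidermis. Lor fell to 539 CPM in KO skin, against 3959 CPM in WT skin, and to 226 CPM in KO epidermis, against 4691 CPM in WT epidermis. Fibroblast markers (7 genes) summed to between 61.5 and 119 CPM in KO epidermis and between 5.96 and 10.55 CPM in WT epidermis, so the KO epidermis held more of such RNA. The part of these shifts in the results for the serpins was not tested. In such bulk RNA fewer cells of a type and less RNA per cell cannot be told apart.

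In KO skin and KO epidermis Serpinb3a, Serpinb3b and Serpinb12 were far above WT, while Serpinb5 and Serpinb2 did not pass the test in either tissue, although Serpinb2 passed in skin with the replicate number as a block (log2 0.62, adjusted p = 0.0213). Serpinb3a was 986-fold higher in KO skin and 2037-fold higher in KO epidermis, Serpinb3b 12.6-fold and 14.9-fold higher, and Serpinb12 15.2-fold and 9.57-fold higher. By edgeR's quasi-likelihood test (Benjamini-Hochberg adjusted over the whole table, threshold 0.05), 4 of the 6 members that could be tested were higher in KO skin, where 22.2% of the 14907 genes tested were higher and 45.5% changed in either direction. Of these 4, Serpinb3a and Serpinb3d passed the filter on low reads only through their KO level, as Serpinb3a did in epidermis, so these counts are a description. In KO epidermis 3 of the 5 members tested were higher, where 26.2% of 13632 genes were higher and 51.5% changed. No member was lower, a call that 23.3% of the genes tested in skin and 25.3% of those in epidermis had. Of all 7 members, Serpinb3c had too few reads to be tested in either tissue and Serpinb3d too few in epidermis. Every KO library lay above every WT library for those 4 members in skin and those 3 in epidermis, as for 25.8% and 30.4% of all genes tested. A rise above 8-fold, shared by the members called, was found in 2.87% of all genes tested in skin and 3.11% in epidermis. This cut lies below every called rise of a member, the smallest being 9.57-fold for Serpinb12 in epidermis, so it is a description only.

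**Figure D1:**
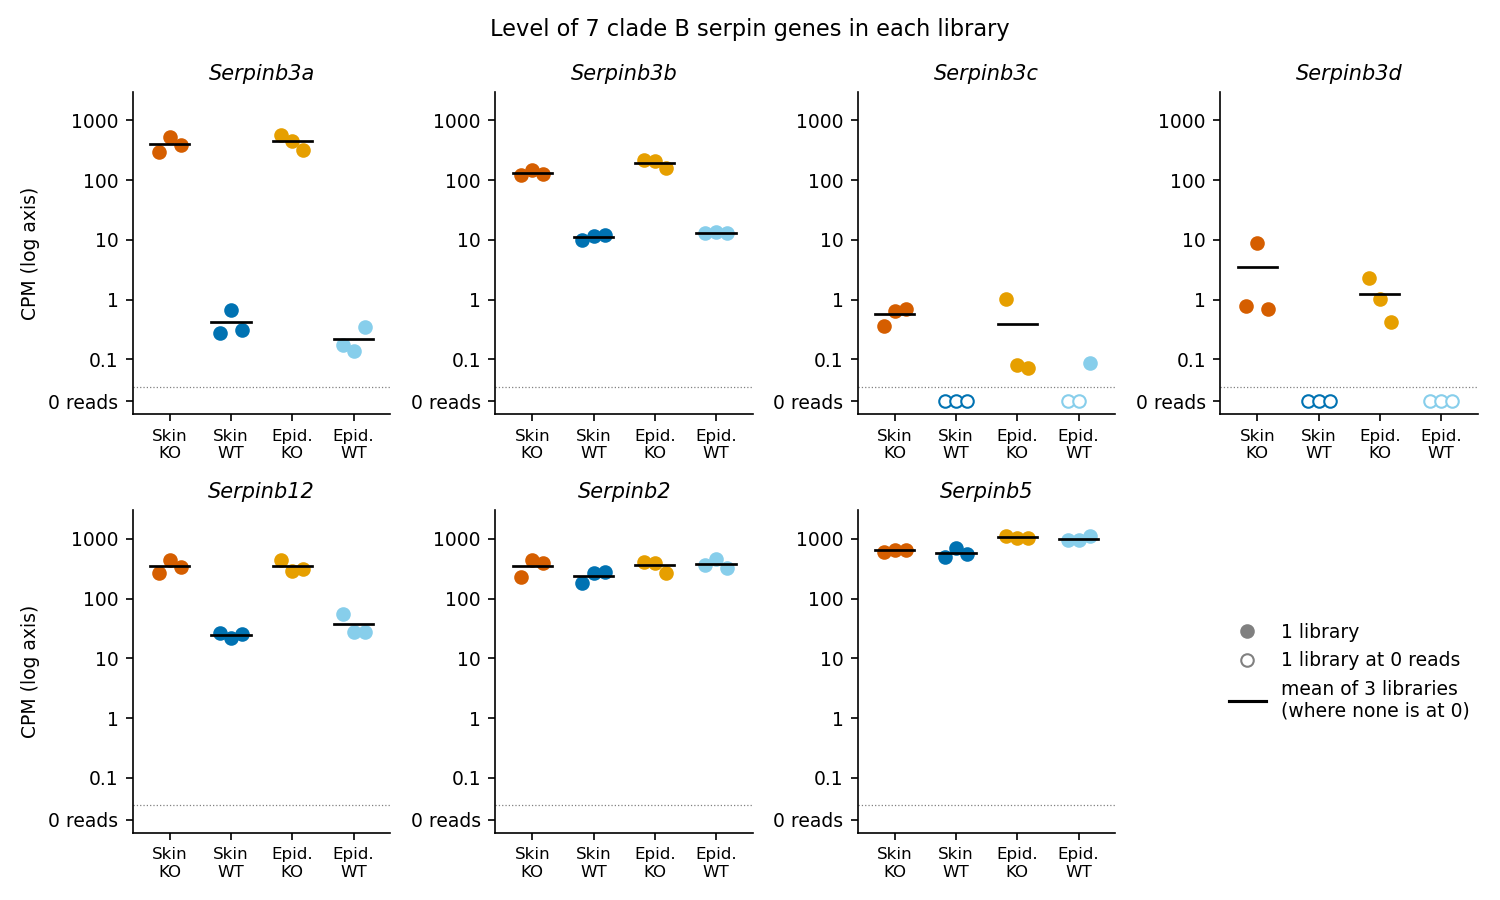
Level of each of the 7 serpin genes (CPM, TMM-scaled, log axis) in the 3 libraries of KO skin, WT skin, KO epidermis and WT epidermis, with a line at the mean of a group in which no library is at 0 reads. Every KO library lies above every WT library of its tissue for Serpinb3a, Serpinb3b, Serpinb3d and Serpinb12, and in skin for Serpinb3c, while the groups overlap for Serpinb2 and Serpinb5 in both tissues.

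Serpinb3a had 301, 538 and 389 CPM in KO skin, against 0.280, 0.679 and 0.304 CPM in WT skin. In epidermis it had 576, 461 and 320 CPM in the KO, against 0.177, 0.138 and 0.346 CPM in the WT. No KO library came near a WT library in either tissue, and KO skin overlapped KO epidermis. The WT values rest on few reads, 22 expected counts over the 3 libraries of WT skin and 8.39 over those of WT epidermis, beside 17909 in KO skin and 17601 in KO epidermis. The log2 fold change was 9.95 (SE 0.43) in skin, with an adjusted p of 2.88e-05 in edgeR's quasi-likelihood test. In epidermis it was 10.99 (SE 0.37), with an adjusted p of 1.47e-06 in edgeR's quasi-likelihood test. Among all genes tested it was the 20th largest rise in skin and the 10th largest in epidermis. Serpinb3a passed the filter on low reads only through its KO level, so these tests and ranks are a description.

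Serpinb3b, the close copy, was already made in WT tissue. It had 124, 148 and 128 CPM in KO skin, against 10.0, 11.8 and 11.96 CPM in WT skin. In epidermis it had 216, 210 and 159 CPM in the KO, against 13.1, 13.5 and 13.1 CPM in the WT. Values within each group lay close together and no KO library overlapped a WT library. The log2 fold change was 3.66 (SE 0.14, edgeR adjusted p = 1.79e-05) in skin and 3.90 (SE 0.16, edgeR adjusted p = 2.06e-06) in epidermis.

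The pair exchanged its rank between genotypes. Of all reads assigned to the 4 Serpinb3 genes, Serpinb3a held between 66.8% and 77.4% in the KO libraries and between 1.20% and 5.46% in the WT libraries, while Serpinb3b held between 21.2% and 33.1% in KO and between 94.5% and 98.8% in WT. Per transcript length, the TPM of Serpinb3a was between 2.05 and 3.70 times that of Serpinb3b in KO libraries and between 0.0126 and 0.0586 times in WT libraries, with no overlap in either tissue. The stretch upstream of the start sites of these 2 genes differed at 15 of 216 bases and their loops at 4 of 81. Reads that match both copies are shared out by the authors' estimation, so the 4 genes were also summed before the fit: the sum was 49.9-fold higher in KO skin (log2 5.64, SE 0.24, edgeR adjusted p = 2.87e-05) and 48.6-fold higher in KO epidermis (log2 5.60, SE 0.22, edgeR adjusted p = 1.94e-06).

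The RNA level of the remaining copies was low, at most 8.997 CPM in any library. Serpinb3d, whose loop was the least similar to that of Serpinb3a, had 0.780, 8.997 and 0.698 CPM in KO skin, against 0 reads in every WT skin library. In epidermis it had 2.29, 1.03 and 0.424 CPM in the KO, against 0 reads in every WT library. Skin KO 2 stood apart with 126 reads, beside 11 in each of the other KO skin libraries. Against a floor of 3 counts over the WT group, Serpinb3d was at least 57.6-fold higher in KO skin (148 reads against 0) and at least 15.2-fold higher in KO epidermis (48 reads against 0). Without Skin KO 2 the bound in skin was 12.7-fold (22 reads), and without Epidermis KO 1 that in epidermis was 9.34-fold (19 reads). Its call in skin (edgeR adjusted p = 0.0312) was lost with Skin WT 2 left out (0.0558), with Skin WT 3 left out (0.0660) and against a minimum of 2-fold (0.0864), and was kept with Skin KO 2 left out (0.0138). Serpinb3d passed the filter on low reads only through its KO level, so this call and its changes are a description.

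Serpinb3c had 0.355, 0.643 and 0.698 CPM in KO skin, against 0 reads in every WT skin library. In KO epidermis it had 1.03, 0.0796 and 0.0706 CPM, against 0, 0 and 0.0864 CPM in WT epidermis. Its 25 reads in KO skin, against 0 in WT skin, made it at least 9.73-fold higher. In KO epidermis 13 of its 15 reads came from Epidermis KO 1, against 1 read in WT epidermis, a ratio of 14.2 with an exact 95% counting interval from 2.19 to 599 that covers counting error only. Serpinb3c made up at most 0.135% of the Serpinb3 reads of a KO library. Whether some of its reads stem from Serpinb3b, which its annotated span overlaps, was not tested.

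**Figure D2:**
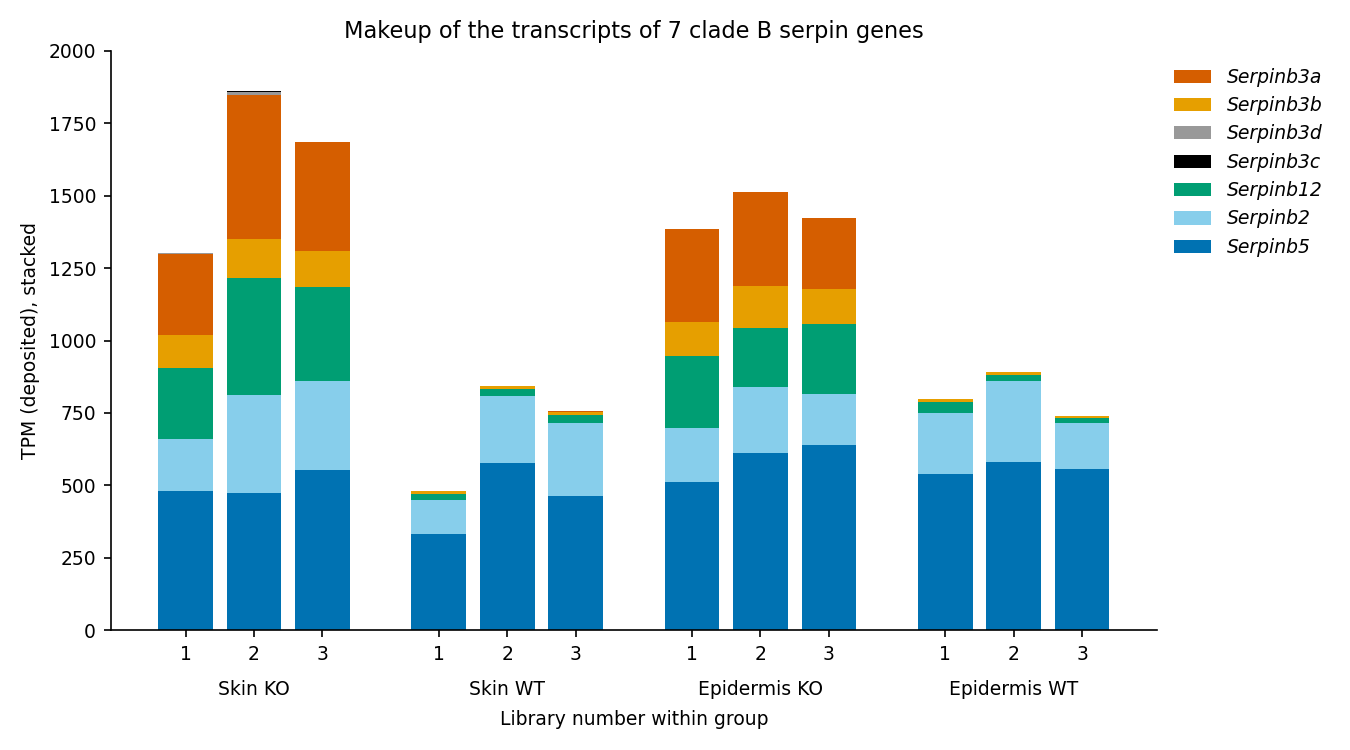
Deposited TPM of the 7 serpin genes stacked for each library (bars start at 0), with libraries numbered within KO skin, WT skin, KO epidermis and WT epidermis. Serpinb5 and Serpinb2 make up most of every WT bar, and Serpinb3a, Serpinb3b and Serpinb12 are added on top in every KO bar, from 1301 to 1859 TPM in KO skin against 480 to 845 TPM in WT skin.

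Serpinb12 had 267, 441 and 339 CPM in KO skin, against 26.2, 22.05 and 25.3 CPM in WT skin. In epidermis it had 453, 291 and 313 CPM in the KO, against 56.0, 27.8 and 27.7 CPM in the WT. The groups did not overlap in either tissue, and Epidermis WT 1 lay above the other WT libraries. The log2 fold change was 3.93 (SE 0.22, edgeR adjusted p = 8.27e-05) in skin and 3.26 (SE 0.31, edgeR adjusted p = 9.60e-05) in epidermis. Unlike the Serpinb3 copies, its transcript shared no 50-base window with another gene.

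All 3 libraries of KO epidermis and 2 of KO skin had Y-linked reads, so in epidermis male RNA and genotype cannot be told apart by leaving libraries out. In Skin KO 2, which had no Y-linked reads, Serpinb3a (538 CPM), Serpinb3b (148 CPM) and Serpinb12 (441 CPM) were each at their highest in KO skin. In a fit that held Y-linked RNA as a covariate, log2 fold changes were 10.34, 3.79 and 4.27 in skin and 10.73, 3.83 and 2.85 in epidermis for Serpinb3a, Serpinb3b and Serpinb12 in that order. Y-linked reads were 0 in every WT library, so the slope of this covariate rests on the 3 KO libraries of each tissue. In epidermis none of these was at 0, so this fit does not separate male RNA from genotype there. Over the alternatives run, the log2 fold change of Serpinb3a ran from 9.68 to 10.504 in skin and from 10.71 to 11.43 in epidermis.

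Serpinb5, the member with the highest mean level per transcript length in every group, did not pass the test of genotype in either tissue. It had 615, 655 and 665 CPM in KO skin, against 501, 705 and 560 CPM in WT skin, a log2 fold change of 0.22 (95% interval -0.16 to 0.61, edgeR adjusted p = 0.296). In epidermis it had 1123, 1054 and 1045 CPM in the KO, against 949, 963 and 1118 CPM in the WT, a log2 fold change of 0.10 (95% interval -0.19 to 0.40, edgeR adjusted p = 0.526). The groups overlapped in both tissues. Its deposited level was 503 ± 44.2 TPM in KO skin, 458 ± 122 in WT skin, 588 ± 68.5 in KO epidermis and 559 ± 21.4 in WT epidermis (SD, n = 3 each). In Skin KO 2, Serpinb3a (497 TPM) stood above Serpinb5 (473 TPM).

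Serpinb2 had 231, 444 and 389 CPM in KO skin, against 182, 266 and 276 CPM in WT skin. Skin KO 1 lay below 2 of the WT libraries, and the log2 fold change of 0.65 (SE 0.27) did not pass edgeR's quasi-likelihood test (adjusted p = 0.0904). It did pass with the replicate number as a block (log2 0.62, adjusted p = 0.0213), with DESeq2 (adjusted p = 0.0427), with Y-linked RNA as a covariate (log2 1.09, adjusted p = 0.0281) and without Skin KO 1 (log2 0.90, adjusted p = 0.0214). In epidermis Serpinb2 had 417, 401 and 274 CPM in the KO, against 369, 463 and 321 CPM in the WT, with overlapping groups and a log2 fold change of -0.06 (95% interval -0.51 to 0.38, edgeR adjusted p = 0.803). Summed with Serpinb10, whose annotation it overlaps, it had a log2 fold change of 0.57 in skin (edgeR adjusted p = 0.103) and of -0.30 in epidermis (edgeR adjusted p = 0.204).

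The differing responses changed the order of the members. In deposited TPM, KO skin ran from Serpinb5 (503) through Serpinb3a (384 ± 109), Serpinb12 (325 ± 79.2), Serpinb2 (275 ± 83.4) and Serpinb3b (123 ± 10.6) to Serpinb3d (4.50 ± 6.11) and Serpinb3c (0.513 ± 0.172) (SD, n = 3), whereas WT skin ran from Serpinb5 (458) through Serpinb2 (201 ± 71.6), Serpinb12 (23.5 ± 3.45) and Serpinb3b (10.9 ± 2.71) to Serpinb3a (0.420 ± 0.257). KO epidermis held Serpinb3a at 296 ± 43.4, Serpinb12 at 231 ± 24.2, Serpinb2 at 197 ± 26.8 and Serpinb3b at 128 ± 15.2 TPM, against 0.147 ± 0.0462, 24.6 ± 11.2, 216 ± 60.6 and 8.57 ± 0.94 TPM in WT epidermis. In KO skin the libraries' values of Serpinb3a, Serpinb12 and Serpinb2 overlapped, and in KO epidermis those of neighbours among these 3 did. The 7 members together summed to 1301, 1859 and 1685 TPM in KO skin, against 480, 845 and 755 TPM in WT skin, and to 1386, 1512 and 1424 TPM in KO epidermis, against 797, 890 and 739 TPM in WT epidermis.

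The genotype effect was compared between the tissues in 1 fit of all 12 libraries. None of the 7 members passed edgeR's quasi-likelihood test of the difference (0 of 7, with 16.5% of 15394 genes past it), and 0 of them had an unadjusted p under 0.05 or passed with DESeq2 or limma-voom. For Serpinb3a the effect in epidermis minus that in skin was 1.14 (95% interval -0.46 to 2.74, edgeR adjusted p = 0.297), for Serpinb3b 0.32 (-0.10 to 0.73, edgeR adjusted p = 0.266), for Serpinb12 -0.59 (-1.46 to 0.28, edgeR adjusted p = 0.325), for Serpinb2 -0.63 (-1.43 to 0.17, edgeR adjusted p = 0.248) and for Serpinb5 -0.04 (-0.47 to 0.39, edgeR adjusted p = 0.905). These intervals still allow differences of more than 2-fold for Serpinb3a, Serpinb12 and Serpinb2. Serpinb3c and Serpinb3d held too few WT reads for this difference to be read.

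Between preparations, Serpinb5 was higher in epidermis in both genotypes. It was 1.66-fold higher in KO epidermis than in KO skin (log2 0.73, SE 0.09, edgeR adjusted p = 0.00306) and 1.69-fold higher in WT epidermis than in WT skin (log2 0.76, SE 0.18, edgeR adjusted p = 0.0124). Without Skin WT 3 the WT difference did not pass (adjusted p = 0.0526). Serpinb3b was 1.46-fold higher in KO epidermis than in KO skin (log2 0.55, SE 0.14, edgeR adjusted p = 0.0226). That call was lost in turn without Skin KO 1 (0.0679), Skin KO 3 (0.0863), Epidermis KO 1 (0.0649) or Epidermis KO 2 (0.0690). Serpinb2 was 1.57-fold higher in WT epidermis than in WT skin (log2 0.65, SE 0.20, edgeR adjusted p = 0.0351), a call lost without Skin WT 2 (0.0567), Skin WT 3 (0.0581), Epidermis WT 1 (0.0805) or Epidermis WT 2 (0.113). In all, 2 of 6 members tested were higher in KO epidermis than in KO skin, where 14.1% of 14117 genes were higher and 29.9% differed, and 2 of 4 in WT epidermis than in WT skin, where 17.5% of 14596 genes were higher and 42.9% differed. Serpinb3a (log2 0.14, 95% interval -0.48 to 0.76) and Serpinb12 (log2 0.01, 95% interval -0.52 to 0.53) did not differ beyond their spread between KO epidermis and KO skin.

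**Figure D3:**
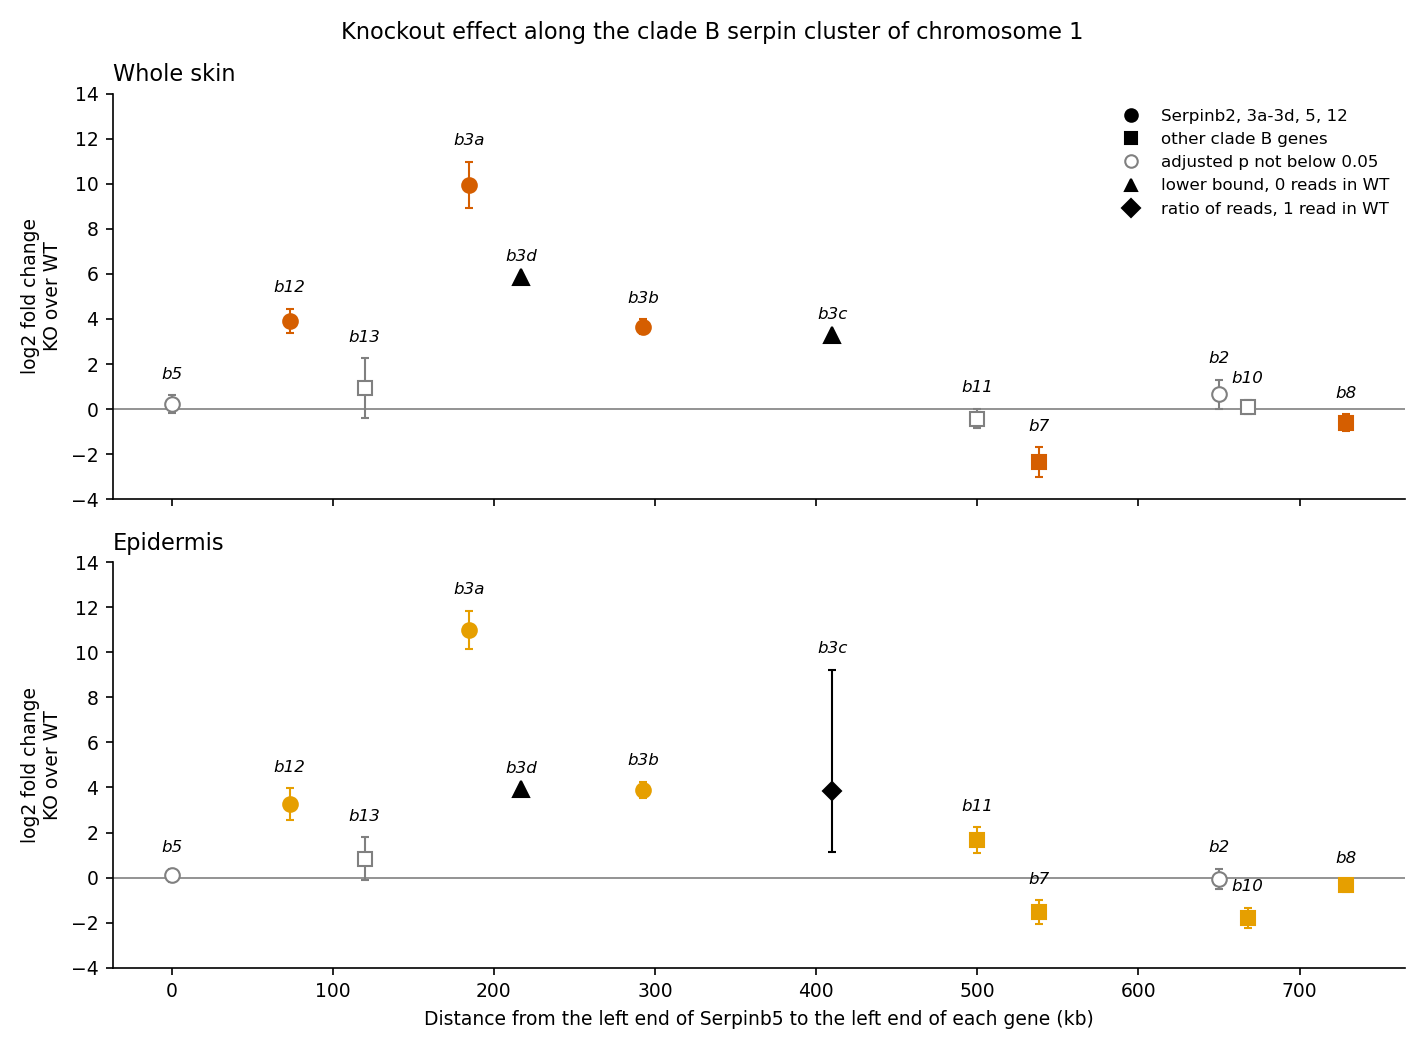
Log2 fold change of KO over WT for each clade B gene of the chromosome 1 cluster in whole skin and in epidermis, by distance from the left end of Serpinb5 in kb, with 95% intervals. Filled symbols passed the test (adjusted p below 0.05), triangles are lower bounds for genes with 0 WT reads, and the diamond is the ratio of reads for Serpinb3c with its counting interval. The genes above 2 lie from Serpinb12 to Serpinb3c, and the genes at either end of the cluster lie near or below 0 in skin.

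Along the chromosome, the members that rose lay next to each other but not without a gap. Serpinb13, between Serpinb12 and Serpinb3a, is in humans an inhibitor of cathepsins K and L. It had 1.60 ± 1.04 CPM in KO skin and 0.867 ± 0.392 CPM in WT skin, and 2.55 ± 1.18 CPM in KO epidermis and 1.44 ± 0.256 CPM in WT epidermis (SD, n = 3 each), and passed neither test (edgeR adjusted p = 0.209 and 0.124). In epidermis it did pass with Y-linked RNA as a covariate (log2 1.65, edgeR adjusted p = 0.0203) and without Epidermis KO 1 (log2 1.17, edgeR adjusted p = 0.0201). Beyond Serpinb3c, Serpinb7, mutated in a human palmoplantar keratoderma, fell in both tissues, to 45.8 ± 14.1 CPM in KO skin, against 248 ± 56.2 CPM in WT skin, and to 80.5 ± 24.2 CPM in KO epidermis, against 235 ± 33.7 CPM in WT epidermis (log2 -2.35 and -1.53, edgeR adjusted p = 0.000987 and 0.000846). Serpinb8, mutated in a human peeling skin disease, fell less (log2 -0.60 and -0.34, edgeR adjusted p = 0.0178 and 0.0412), and its calls were lost in 8 alternatives in skin and 9 in epidermis. Serpinb11 stood at 40.3 CPM in KO skin and 57.5 CPM in WT skin without passing (edgeR adjusted p = 0.101, or 0.0402 with the replicate number as a block), and rose to 19.9 CPM in KO epidermis, against 6.40 CPM in WT epidermis (edgeR adjusted p = 0.000960). Serpinb10, annotated as a polymorphic pseudogene in this assembly, stood at 49.5 CPM in KO skin and 49.2 CPM in WT skin, and fell to 31.0 CPM in KO epidermis, against 107 CPM in WT epidermis (edgeR adjusted p = 0.000188). For Serpinb11 and Serpinb10 the difference between tissues itself passed edgeR's test (adjusted p = 0.00283 and 0.00207).

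Of the 20 other clade B serpins, 2 rose, 5 fell, 7 did not pass and 6 had too few reads in skin, with a median log2 fold change of -0.40 among those tested, beside 3.79 for the members and -0.00146 for all genes tested. In epidermis 5 rose, 6 fell, 2 did not pass and 7 had too few reads, with a median of 0.81, beside 3.26 for the members and 0.00307 for all genes tested. The members tested passed a filter on low reads that their KO level decided for Serpinb3a and Serpinb3d, so these medians describe only the genes tested. Over all genes tested, 22.2% rose and 23.3% fell in skin, and 26.2% rose and 25.3% fell in epidermis. These shares also stand beside the counts of the lists that follow. Serpinb1a, an inhibitor of neutrophil elastase and cathepsin G, rose to 120 CPM in KO skin, against 16.1 CPM in WT skin, and to 103 CPM in KO epidermis, against 7.27 CPM in WT epidermis (edgeR adjusted p = 0.000966 and 1.70e-05). Serpinb6c rose to 24.6 CPM in KO skin, against 0.534 CPM in WT skin, and to 18.4 CPM in KO epidermis, against 0.678 CPM in WT epidermis (edgeR adjusted p = 0.000110 and 0.000141). Serpinb6a fell to 126 CPM in KO skin, against 308 CPM in WT skin, and to 79.6 CPM in KO epidermis, against 164 CPM in WT epidermis (edgeR adjusted p = 0.0245, lost in 6 alternatives, and 0.000371). The Serpinb6 genes are close copies, so reads could be split between them.

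Among serpins of other clades, most of them secreted, 2 of 23 genes rose and 9 fell in skin (median log2 fold change -1.14 of 16 tested), and 5 rose and 8 fell in epidermis (median -0.74 of 15 tested). Serpina12, known as vaspin, fell to 11.9 CPM in KO skin, against 304 CPM in WT skin, and to 6.34 CPM in KO epidermis, against 337 CPM in WT epidermis (edgeR adjusted p = 7.41e-05 and 6.74e-05). Serpina3g and Serpina3h, 2 of a mouse family of near copies, fell by 1.52 and 2.24 on the log2 scale in skin and by 2.03 and 1.99 in epidermis (edgeR adjusted p at most 0.00171). Serpina9 rose to 30.4 CPM in KO skin, against 0.442 CPM in WT skin, and to 7.24 CPM in KO epidermis, against 0.525 CPM in WT epidermis (edgeR adjusted p = 5.47e-05 and 0.000169).

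**Figure D4:**
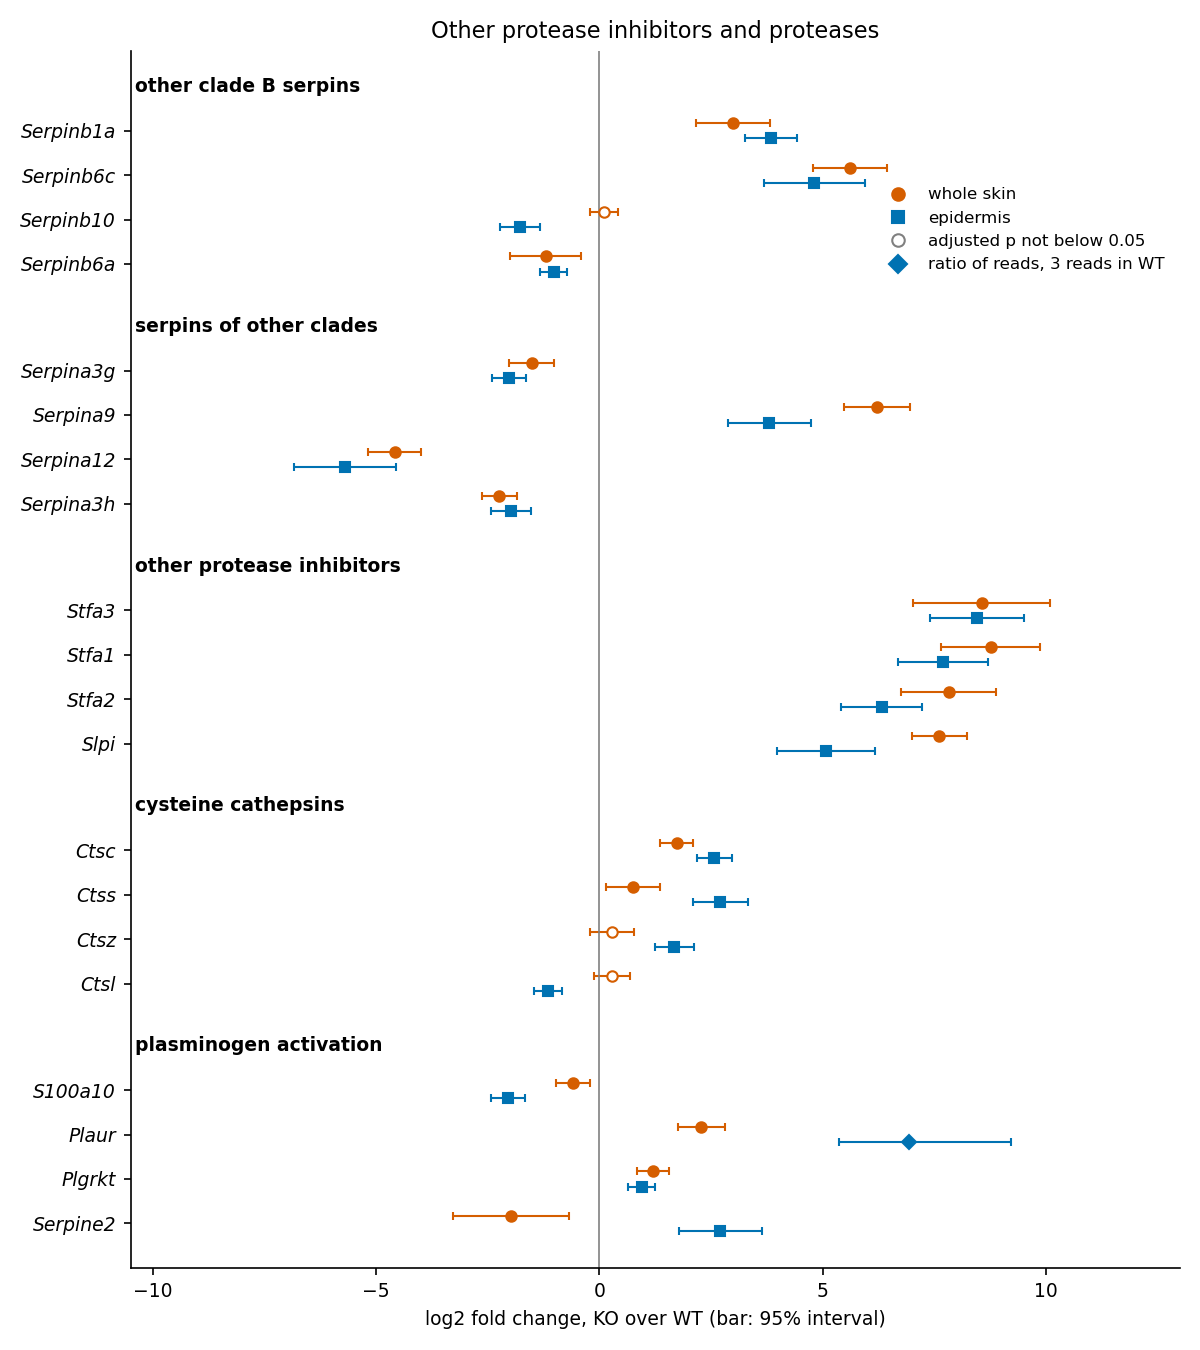
Log2 fold change of KO over WT with 95% intervals for named genes of 5 lists, other clade B serpins, serpins of other clades, other protease inhibitors, cysteine cathepsins and plasminogen activation, in whole skin (circles) and epidermis (squares); open symbols did not pass the test, and the diamond is the ratio of reads for Plaur. The stefin A genes and Slpi lie above 5 in both tissues, and Serpina12 lies below -4 in both.

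Proteases of the classes that these serpins are known to inhibit moved in both directions, as genes did over the whole table. Of 10 cysteine cathepsins, the papain-like class that human SERPINB3 inhibits, 3 rose, 1 fell and 6 did not pass in skin (median log2 fold change 0.28), and 4 rose, 3 fell and 2 did not pass in epidermis (median -0.10). Ctsc, the dipeptidyl peptidase that activates granule serine proteases, rose to 169 CPM in KO skin, against 54.1 CPM in WT skin, and to 154 CPM in KO epidermis, against 26.1 CPM in WT epidermis (edgeR adjusted p = 0.000370 and 1.70e-05). Ctss, a cathepsin of antigen-presenting cells, rose by 2.70 on the log2 scale in epidermis (edgeR adjusted p = 0.000121) and by 0.75 in skin (0.0467), a call in skin that was lost in 11 alternatives. In the same epidermis libraries 6 of 7 macrophage markers rose, and their sum was between 47.3 and 115 CPM in the KO and between 20.2 and 21.1 CPM in the WT. Ctsl, a lysosomal cathepsin of keratinocytes, fell to 80.0 CPM in KO epidermis, against 180 CPM in WT epidermis (edgeR adjusted p = 0.000270), and stood at 406 CPM in KO skin and 355 CPM in WT skin without passing (0.227).

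Serine proteases of leukocytes were mostly at the limit of detection in epidermis. Of 12 such genes, 1 rose and 4 fell in skin and 7 had too few reads, and 1 rose in epidermis and 11 had too few reads. Gzmb, the granule protease of cytotoxic lymphocytes, had 56 reads in KO skin against 1 in WT skin, a ratio of 65.4 with an exact 95% counting interval from 11.3 to 2627, and 73 reads in KO epidermis against 1 in WT epidermis, a ratio of 69.2 (12.04 to 2771). The mast cell proteases Cma1 and Mcpt4 fell by 1.22 and 1.24 on the log2 scale in skin (edgeR adjusted p = 0.0144 and 0.0195), with calls lost in 5 and 6 alternatives. Both are also among the 6 mast cell markers, of which 3 fell, 1 rose and 2 did not pass in skin. Prtn3, a neutrophil granule protease, fell by 3.82 on the log2 scale in skin (edgeR adjusted p = 0.00787, lost in 2 alternatives). The neutrophil markers (8 genes) summed to between 37.5 and 41.0 CPM in KO skin, against 0.627 to 1.52 CPM in WT skin. Most of the KO sum was Cxcr2, at 30.8, 25.3 and 29.6 CPM. In skin 3 of the 8 markers were tested and rose, and 5 had too few reads, among them Ly6g with 2, 2 and 1 reads in the KO.

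In the plasminogen system, which Serpinb2 is known to restrain, 3 of 9 genes rose, 3 fell and 2 did not pass in skin, and 4 rose, 2 fell and 2 did not pass in epidermis. Plaur, the urokinase receptor, rose to 7.21 CPM in KO skin, against 1.59 CPM in WT skin (edgeR adjusted p = 0.000506), and had 385 reads in KO epidermis against 3 in WT epidermis, a ratio of 122 with an exact 95% counting interval from 41.3 to 593. Plgrkt, a plasminogen receptor, rose by 1.20 on the log2 scale in skin and by 0.95 in epidermis (edgeR adjusted p = 0.00128 and 0.000540). S100a10, a partner of annexin A2 that binds plasminogen, fell to 145 CPM in KO epidermis, against 605 CPM in WT epidermis, and to 182 CPM in KO skin, against 293 CPM in WT skin (edgeR adjusted p = 4.65e-05 and 0.0220, the skin call lost in 6 alternatives). Serpine2, a secreted inhibitor of plasminogen activators, fell to 6.98 CPM in KO skin, against 29.2 CPM in WT skin (edgeR adjusted p = 0.0233, lost in 6 alternatives), and rose to 3.29 CPM in KO epidermis, against 0.485 CPM in WT epidermis (edgeR adjusted p = 0.000819).

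Of 14 protease inhibitors outside the serpin family, 9 rose, 1 fell and 3 did not pass in skin, and 6 rose, 4 fell and 1 did not pass in epidermis. The stefin A genes, cysteine protease inhibitors that are near copies of each other in the mouse, rose together: Stfa3 stood at 2140.3 CPM in KO skin, against 6.05 CPM in WT skin, and at 3184 CPM in KO epidermis, against 9.11 CPM in WT epidermis. Stfa1 stood at 502 CPM in KO skin, against 1.25 CPM in WT skin, and at 534 CPM in KO epidermis, against 2.61 CPM in WT epidermis, and Stfa2 rose by 7.83 on the log2 scale in skin and by 6.32 in epidermis (edgeR adjusted p at most 0.000220 for the 3 genes). Slpi, an inhibitor of neutrophil elastase, stood at 93.3 CPM in KO skin, against 0.496 CPM in WT skin, and at 20.9 CPM in KO epidermis, against 0.612 CPM in WT epidermis (edgeR adjusted p = 1.51e-05 and 9.58e-05).

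Human SERPINB3 and SERPINB4 are known targets of interleukin-4 and interleukin-13, which signal through Stat6. Of 6 genes of this pathway 3 rose in skin, where 22.2% of all genes tested rose, and 4 in epidermis, where 26.2% did, with 2, the cytokine genes, having too few reads to be tested in either. The part of this pathway in the levels of the serpins was not tested. Il13 had 5, 7 and 6 reads in KO skin, against 1, 1 and 2 in WT skin, and 16, 13 and 9 reads in KO epidermis, against 1, 2 and 3 in WT epidermis, while Il4 had at most 3 reads in a KO library and at most 7 in a WT library. Il13ra2, the decoy receptor that interleukin-13 induces, rose to 8.25 CPM in KO skin, against 2.22 CPM in WT skin, and to 5.39 CPM in KO epidermis, against 0.887 CPM in WT epidermis (edgeR adjusted p = 0.00118 and 0.000506). Il4ra rose by 1.35 on the log2 scale in skin and by 0.74 in epidermis, and Stat6 by 0.54 and 0.60 (edgeR adjusted p at most 0.0260, with the Stat6 calls lost in 4 and 2 alternatives). Il13ra1 rose by 0.37 in epidermis (edgeR adjusted p = 0.0245, lost in 9 alternatives) and had a log2 fold change of 0.04 in skin that turned negative in 5 alternatives.

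Over the 12 libraries, log2 CPM of Serpinb3a ran with that of Serpinb3b (Pearson r = 0.99) and of Serpinb12 (r = 0.97), and that of Serpinb3b with Serpinb12 (r = 0.98). These values describe 2 separated clusters of libraries, KO and WT, that share the same genotype difference, so no p is given. Among 14097 genes with a mean of at least 1 CPM, those most like Serpinb3a were Ankk1, Slc37a2 and Nppb (r between 0.9953 and 0.9966), those most like Serpinb3b Smpdl3a, Il17f and Abcc3 (r between 0.9938 and 0.9976), and among those most like Serpinb12 were Stfa1 (r = 0.9908) and Galnt6 (r = 0.9905). Serpinb5, which did not follow the genotype, was most like Hcar2, Cdh1 and Tmem30b (r between 0.9752 and 0.9783), among them Cdh1, the epithelial cadherin. Serpinb2 had no partner as close, with Gm8399, Gmeb1 and Klf4 at r between 0.8621 and 0.8866. Serpinb3c was most like Ube2d2a (r = 0.9474) and Serpinb3d most like Nol10 (r = 0.9559), both from few reads.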

How the data were processed

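Poly(A) RNA-seq libraries of 4 groups of 3 were analysed, grouped and numbered by their titles. The deposited tables hold an expected count per gene, estimated by RSEM after STAR 2.5.1 alignment to mm10 and bcl2fastq 2.17 base calling, per the file headers and the submitters' processing notes. They also give TPM, which the authors deposited beside the counts and which was used here for levels between genes. The sources used here do not name the annotation or the strand setting of the counting. RSEM divides reads that match several genes by probability, which left 8.42% to 9.98% of the values in a library not whole. The 47643 gene IDs were matched to GENCODE mouse release 21 without version number (47224 matched). The 419 IDs without a match held up to 0.0612% of the counts in a library.

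Expected counts were rounded and tested with edgeR 4.0.16 in R 4.3.3 (TMM scaling, default expression filter, quasi-likelihood fit, Benjamini-Hochberg adjustment over all genes tested, threshold 0.05), separately for each pair of groups and in 1 fit of all 12 libraries for the difference between tissues. CPM are TMM-scaled over the 12 libraries. The standard error is the log2 fold change divided by the square root of F. The fit was tested on simulated counts. Folds against groups with 0 reads are lower bounds against 3 counts over the group, and with 1 to 3 reads they are ratios with exact 95% intervals. Depth of 12208522 to 16743144 counts limits the precision of low genes. Named genes outside the members were up to 4 per list, by smallest adjusted p, every clade B gene of the cluster, and the 3 genes most like each member by Pearson r. The members and lists were chosen with earlier results of these data known. Sequences were aligned with Biopython 1.88.

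Alternatives were DESeq2 1.42.0, limma-voom (limma 3.58.1), RLE scaling, TMM without muscle, adipocyte and member genes, no filter on low counts, 1 fit of 12 libraries, a replicate block, Serpinb3 paralogs summed, Y-linked RNA as a covariate, KO libraries without Y-linked reads, a minimum of 2-fold and leaving out each library. With only KO libraries without Y-linked reads kept, Skin KO 2 was the sole KO library of skin. Summing Serpinb2 with Serpinb10 was added after seeing the data. Deviations of skin libraries with the same replicate number correlated across genes (0.363, 0.390 and 0.231, all above 0.1). With unlike numbers, Skin KO 1 with Skin WT 3 (0.133) and Skin KO 3 with Skin WT 2 (0.102) were also above 0.1. No label states a pairing. The main tests held no replicate block, and the block was run as an alternative only. One gene that the rule for similar patterns selected is not reported here.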

Additional observations from a re-analysis of the deposited data

Results flagged for a closer look

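No member passed the test of a difference between tissues in its genotype effect. Among the other genes named, 11 passed by edgeR's quasi-likelihood test of the difference (Benjamini-Hochberg adjustment over 15394 genes), given as the log2 effect in epidermis minus that in skin. Of the serpins these were Serpinb11 (2.15, adjusted p = 0.00283), Serpinb10 (-1.80, adjusted p = 0.00207), Serpina9 (-2.33, adjusted p = 0.0195) and Serpine2 (4.75, adjusted p = 0.00340). Of the cathepsins these were Ctsc (0.92, adjusted p = 0.0234), Ctss (2.03, adjusted p = 0.00792), Ctsz (1.47, adjusted p = 0.00853) and Ctsl (-1.36, adjusted p = 0.00330). The others were Plaur (4.65, adjusted p = 0.0128, from 3 reads in WT epidermis), S100a10 (-1.37, adjusted p = 0.00386) and Slpi (-2.45, adjusted p = 0.0346). The difference lost its call in 8 alternatives for Slpi (adjusted p up to 0.183, among them leaving out any 1 of Skin WT 1, 2 or 3, Skin KO 1 or Epidermis WT 2 or 3), in 6 for Ctsc (up to 1 against a minimum of 2-fold, and without Skin WT 3, Skin KO 1 or 2, Epidermis WT 3 or Epidermis KO 2) and in 3 for Serpina9 (up to 0.117, and without Skin WT 3 or Epidermis WT 1). It lost its call in 1 alternative each for Ctsl, Ctss, Ctsz, Plaur and S100a10. In the same epidermis libraries 6 of 7 macrophage markers and 6 of 6 tested fibroblast markers rose, and 6 of 7 basal keratinocyte markers fell, and their part in these differences was not tested.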

How the results depend on the processing

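Serpinb3a, Serpinb3b and Serpinb12 kept direction and call in both tissues under every alternative that fitted them as separate genes. Among these, the fit with Y-linked RNA as covariate does not separate male RNA from genotype in epidermis. The count of members called in skin was 4 and became 2 with the Serpinb3 genes summed, where 4 genes enter as 1. It was 3 against a minimum of 2-fold, 5 without a filter, in 1 fit of 12 libraries, with the block or with Y-linked RNA as covariate, 6 with DESeq2, and 3 to 6 when 1 library was left out, as Serpinb3d was lost or Serpinb2 or Serpinb3c gained. In epidermis it was 3 and became 2 with the Serpinb3 genes summed and 4 with DESeq2, without a filter or in 1 fit of 12 libraries, with 3 to 4 when 1 library was left out, the added member being Serpinb3d. Between WT tissues it was 2, and became 1 with the replicate block and 0 against a minimum of 2-fold, with 0 to 2 when 1 library was left out. Between KO tissues it was 2, and became 1 with the Serpinb3 genes summed and 0 against a minimum of 2-fold, with 1 to 2 when 1 library was left out. The count of 0 for the difference between tissues was 0 under every alternative run. The replicate block also brought Serpinb2 (log2 0.62, adjusted p = 0.0213) and Serpinb11 (log2 -0.41, adjusted p = 0.0402) past the threshold in skin, took Serpinb2 between WT tissues below it (adjusted p = 0.0528), and changed no other call of a named gene. Numbers did not pair the epidermis libraries (correlations 0.0871, 0.194 and -0.0919) or the tissues.

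Values near 0 changed sign without passing a test. Leaving out 1 library gave -0.19 to 0.11 for Serpinb2 in epidermis, -0.19 to 0.063 for the tissue difference of Serpinb5, -0.0065 to 0.17 for Serpinb10 in skin and -0.15 to 0.14 for Il13ra1 in skin. Between KO tissues it gave -0.20 to 0.23 for Serpinb2, -0.065 to 0.39 for Serpinb3a, -0.20 to 0.21 for Serpinb12 and -2.26 to 0.74 for Serpinb3d. Il13ra1 in skin was -0.079 with Y-linked RNA as covariate, -0.059 in 1 fit of 12 libraries and -0.069 without Y-linked KO libraries, and Ctsl in skin was -0.0014 with that covariate. The causes were not tested.

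Counts over all genes moved by more than 1.5 times in skin (6779) to 2022 against a minimum of 2-fold and 2662 without Y-linked KO libraries, in epidermis (7015) to 1589 and, with Y-linked RNA as covariate, 4540, for the tissue difference (2539) to 469 and, leaving out 1 library, 1392 to 3939, between WT tissues (6257) to 2062, and between KO tissues (4227) to 479, with the block 2805 and without Skin KO 3 2325. The covariate was not run between WT tissues, where Y-linked reads were 0. In WT libraries a level under 3 counts, 0.157 to 0.265 TMM-scaled CPM, limits what can be said of Serpinb3a, Serpinb3c and Serpinb3d.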
